A study of Homo sapiens with 8 samples.

Results

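The 10 squamous lineage transcription factors were followed in KYSE850 cells, an established human line of esophageal squamous cell carcinoma (ESCC). They were TP63, SOX2, KLF4, KLF5, GRHL1, GRHL2, GRHL3, OVOL1, ZNF750 and PITX1. A probe was taken for a member when its RefSeq accession mapped to the member's symbol, which gave 14 of the 42405 probes on the array and at least 1 probe for each of the 10 genes. Their mRNA levels came from 8 Agilent arrays of one colour, 4 from cells transfected with control siRNA and 4 from cells transfected with siRNA against KHSRP. An siRNA is a short duplex that triggers decay of a matching mRNA, and KHSRP encodes an RNA-binding protein that acts in mRNA decay and in the maturation of microRNAs. Per the labels the 8 samples differed only in the siRNA, so the groups model transient knockdown in 1 tumor line and hold no normal esophagus. The labels give neither the siRNA sequence used for each array nor whether the 4 samples of a group were separate cultures, so p-values measure only the spread between these samples, which may be technical.

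Squamous epithelium is renewed from a basal layer and matures toward the surface. TP63 specifies the basal keratinocyte, and SOX2, an HMG-box factor, maintains foregut progenitors and is often amplified in ESCC. KLF5 is a zinc finger factor of proliferating basal cells, whereas its relative KLF4 acts in the upper, maturing layers. The grainyhead-like factors GRHL1, GRHL2 and GRHL3 control junction and barrier genes, OVOL1 and ZNF750 are zinc finger factors that promote terminal differentiation, and PITX1 is a homeobox factor known from limb and pituitary development that is also made in squamous epithelium.

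Promoter sequences are shown for the 4 members on which the results below turn, KLF4 because it passed the test between the groups and TP63, SOX2 and KLF5 because they rose and fell together from array to array. The sequences are the 250 bases before a RefSeq gene start in GRCh38.p14, written 5′ to 3′ on the gene's strand. Capitals mark 3 motifs searched on both strands, namely the GC box GGGCGG bound by zinc finger factors of the SP and KLF families, the CCAAT box CCAAT, and a SOX core spelled ACAAAG or ACAATG. KLF5 has 2 listed starts, of which the second, rich in G and C, is shown. The TP63 window lies inside the gene's range, which begins at chr3:189596746, so it precedes an internal start. Which start gives the TP63 mRNA of these cells was not tested.
KLF4, chr9:107489770-107490019, minus strand: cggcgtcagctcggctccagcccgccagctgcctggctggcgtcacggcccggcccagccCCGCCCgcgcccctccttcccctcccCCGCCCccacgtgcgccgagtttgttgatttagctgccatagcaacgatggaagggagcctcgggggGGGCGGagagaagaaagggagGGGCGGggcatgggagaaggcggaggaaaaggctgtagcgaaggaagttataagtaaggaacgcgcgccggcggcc
KLF5, chr13:73058755-73059004, plus strand: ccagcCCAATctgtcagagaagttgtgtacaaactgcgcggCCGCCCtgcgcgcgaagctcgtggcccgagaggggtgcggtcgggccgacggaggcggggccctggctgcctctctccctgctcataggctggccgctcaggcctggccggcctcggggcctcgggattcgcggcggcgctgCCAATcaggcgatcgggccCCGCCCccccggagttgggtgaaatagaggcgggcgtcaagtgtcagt
SOX2, chr3:181711675-181711924, plus strand: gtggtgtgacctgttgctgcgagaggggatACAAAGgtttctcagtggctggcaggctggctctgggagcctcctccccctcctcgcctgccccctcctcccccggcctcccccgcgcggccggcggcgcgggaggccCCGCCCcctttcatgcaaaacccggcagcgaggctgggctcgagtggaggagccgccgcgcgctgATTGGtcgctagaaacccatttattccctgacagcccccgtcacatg
TP63, chr3:189631139-189631388, plus strand: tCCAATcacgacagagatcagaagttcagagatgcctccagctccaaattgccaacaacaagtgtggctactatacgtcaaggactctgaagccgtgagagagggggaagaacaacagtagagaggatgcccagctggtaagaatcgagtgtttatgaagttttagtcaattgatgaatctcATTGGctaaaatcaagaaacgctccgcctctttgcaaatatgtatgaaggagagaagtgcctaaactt

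The KLF4 window held 4 GC boxes and neither other motif, in 69.2% G and C. The KLF5 window held 2 GC boxes and 2 CCAAT boxes, and the SOX2 window held 1 GC box, 1 CCAAT box and 1 SOX core. The TP63 window held 2 CCAAT boxes and no GC box in 44.0% G and C, against a median of 58.0% over the 35116 windows of all genes. A GC box was found in 42.6% of those windows, a CCAAT box in 32.0% and a SOX core in 21.2%. At the other KLF5 start (chr13:73054726-73054975), the window held 1 SOX core in 40.8% G and C. A match says only that the letters are in the window. Of the 10 members, 7 had an entry in the promoter table.

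Levels are given as log2 of the processed signal minus the array's 75th percentile, so a level of 0 equals that percentile, and levels of different probes are not compared as amounts. Each array held 42405 probes after spots of the same probe were averaged, of which 45.1% to 49.4% passed the scanner software's test of being well above background, and no spot was saturated. The comparison took probes with a share of 0.5 or more of their spots well above background on every array of a group, which left 18761 probes for 12125 genes. The KHSRP probe A_23_P16157 had a level of 6.08 ± 0.24 in the control arrays and 2.71 ± 0.19 after knockdown (SD, n = 4 each), a log2 change of -3.37 (SE 0.16, limma adjusted p = 5.95e-05). A further probe of the gene, A_24_P134235, exceeded background on the 4 control arrays and on none of the KHSRP siRNA arrays. Its log2 change was -2.67 (limma adjusted p = 0.0147), with background values after knockdown. When those values were set no lower than the array's lowest level well above background, the probe was 5.83-fold lower. All 8 arrays therefore matched their labels at the targeted gene. Markers of squamous epithelium were well above background on all 8 arrays for 7 of 8 genes (KRT5, KRT14, KRT6A, KRT17, DSG3, SERPINB5 and TRIM29), and the eighth, LY6D, was on 6 arrays. The columnar epithelial genes KRT8, KRT18, CDX2 and MUC2 were also measured on all 8 arrays, whereas KRT20 and VIL1 were on none. Of the fibroblast markers only COL1A1 (1 of 6) was well above background on any array, none of the 3 endothelial markers was on any array, and of the 4 leukocyte markers CD68 and CD14 were on all 8 arrays while PTPRC was on 4 and CD3E on 5.

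The arrays differed from each other in a way that crossed the siRNA groups. When each probe's deviation from the mean of its own group was taken, control siRNA 3, KHSRP siRNA 1 and KHSRP siRNA 4 correlated positively with control siRNA 1, and the other 4 arrays correlated negatively with it. Correlations across probes ran from 0.29 to 0.84 among the 4 arrays that followed control siRNA 1 and among the other 4, and from -0.75 to -0.13 between an array of one kind and an array of the other. Deviations of 4 arrays sum to 0, which by itself pulls correlations within a siRNA group below 0. Each siRNA group and each of the 2 slides held 2 arrays of either kind. These arrays are not groups of the study, so their order is described below and no test was made between them. In bulk samples, fewer cells of a type and less RNA per cell cannot be told apart.

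SOX2, KLF5, PITX1, KLF4, TP63 and OVOL1 were well above background on all 8 arrays. The SOX2 probe (A_23_P401055), the KLF5 probe (A_23_P53891) and both PITX1 probes lay above the 75th percentile of every array. KLF4 (A_23_P32233) lay near that percentile, and TP63 (A_24_P273756) and OVOL1 (A_23_P202810) lay below it on all 8 arrays. GRHL1 was well above background with probe A_33_P3230269 on the 4 control arrays and on 3 KHSRP siRNA arrays, while its other probe A_33_P3423791 was on 1 control array only. Neither probe of GRHL2 (levels between -5.79 and -4.18) nor the ZNF750 probe (between -5.70 and -4.32) was well above background on any array. GRHL3 was well above background with probe A_23_P52067 on 1 control array and 3 KHSRP siRNA arrays, and with probe A_33_P3266132 on none. Thus 8 of the 14 probes, for 7 of the 10 genes, passed the filter, and GRHL2, GRHL3 and ZNF750 were not tested. Which isoforms of TP63 its probe reads is not given in the sources used here.

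**Figure D1:**
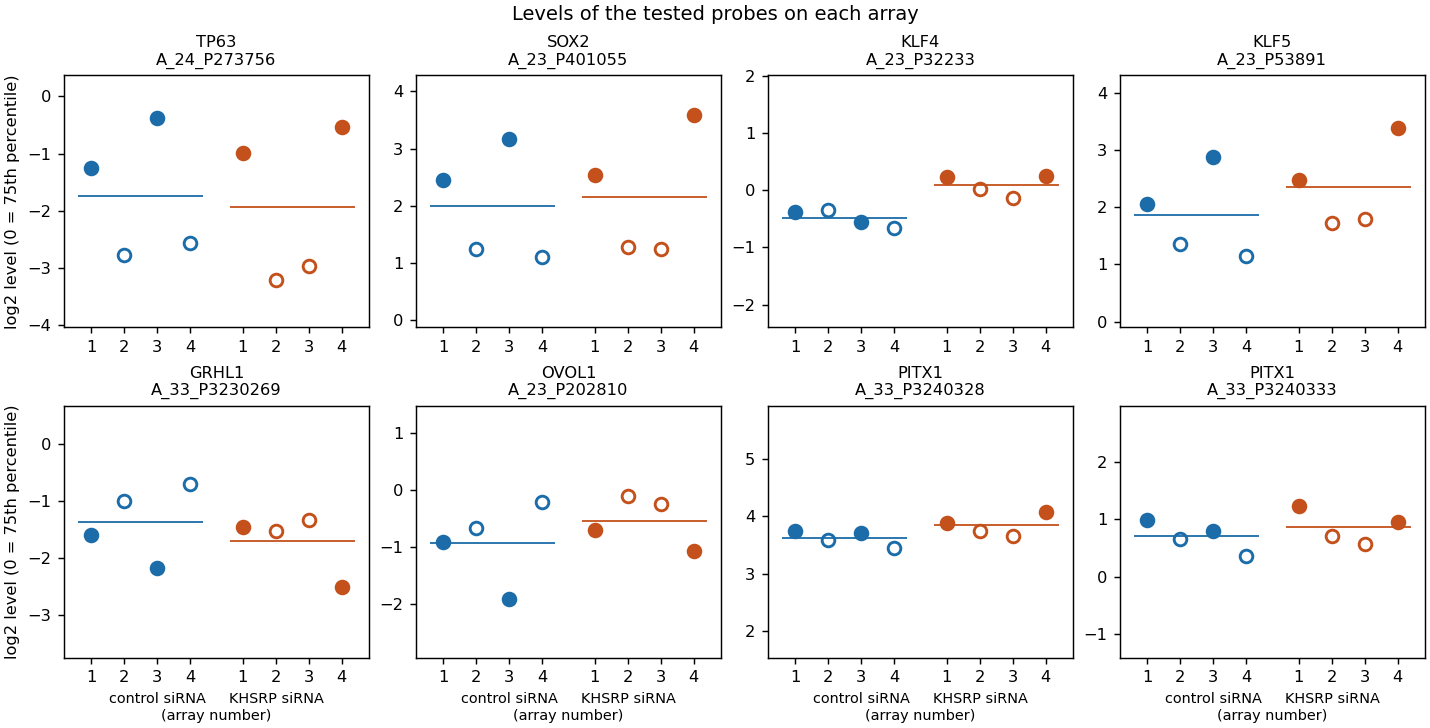
Level of each tested probe (vertical axis, log2 of signal with 0 at the array's 75th percentile) on the 4 control siRNA arrays (blue) and the 4 KHSRP siRNA arrays (orange), numbered as in the scanner files; every panel spans the same number of log2 units, lines are group means and filled points are the 4 arrays that followed control siRNA 1. Only the KLF4 groups do not overlap, while TP63, SOX2 and KLF5 show filled points above open points in both groups.

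KLF4 was the only member that passed the test between control and KHSRP siRNA. Of the 7 genes tested, 1 (KLF4, higher) had a limma adjusted p under 0.05, against 6.19% of all 12125 genes tested in either direction and 2.14% higher. The median log2 change of the 7 genes was 0.22, with 5 above and 2 below 0, and over all genes it was 0.01. At an unadjusted limma p under 0.05 the count was again 1, against 2517 of the 12125 genes tested.

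KLF4 (chr9:107484852-107489769) had levels of -0.38, -0.34, -0.56 and -0.66 with control siRNA and 0.24, 0.03, -0.14 and 0.26 with KHSRP siRNA. Every KHSRP siRNA array lay above every control array, as was the case in one direction or the other for 16.2% of all genes tested. The mean level rose from -0.48 ± 0.15 to 0.10 ± 0.19 (SD, n = 4 each), a log2 change of 0.58 (SE 0.14, 95% interval 0.27 to 0.89), or 1.49-fold, with a limma adjusted p of 0.0452. The change was 0.49 on slide 1 and 0.67 on slide 2. The call rested near the threshold. With any 1 array left out it was kept only without KHSRP siRNA 3 (adjusted p = 0.0426), and without each of the other 7 arrays the adjusted p lay between 0.0819 and 0.122 at log2 changes of 0.52 to 0.63. When each array was centred on its median instead, the KLF4 change was 0.50 with a limma adjusted p of 0.250.

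KLF5 (chr13:73054976-73077538), the basal relative of KLF4, had levels of 2.05, 1.35, 2.88 and 1.15 with control siRNA and 2.47, 1.73, 1.80 and 3.39 with KHSRP siRNA. The groups overlapped widely, because KLF5 varied 3.31-fold between the lowest and the highest control array and 3.15-fold among the KHSRP siRNA arrays. Its log2 change was 0.49 (SE 0.47, 95% interval -0.58 to 1.56), a fold of 1.40, with a limma adjusted p of 0.665.

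The replicate numbers bear on KLF5. In the series matrix, the column of KHSRP siRNA 3 matched the scanner file of KHSRP siRNA 4 and the reverse, so the pairs of control and KHSRP siRNA arrays that share a number depend on the file. Numbered by the matrix, the 4 pairs deviated together, with correlations across probes of 0.52, 0.43, 0.83 and 0.84, and by the scanner files the last 2 were -0.67 and -0.64. Control and KHSRP siRNA arrays of the same kind that share no number in either file also correlated, at 0.38 to 0.42. The correlations therefore cannot show which arrays were paired, and the matrix block was taken up after they were seen in these same data. With the matrix numbers as a replicate block, the KLF5 change of 0.49 had an SE of 0.07 (95% interval 0.31 to 0.67) and a limma adjusted p of 0.00751. KLF5 was higher with KHSRP siRNA in 4 of those 4 pairs, by 0.42, 0.38, 0.51 and 0.65 on the log2 scale. KLF4 was higher in 4 of 4 pairs as well, by 0.61, 0.37, 0.82 and 0.52 (limma adjusted p = 0.00857 with the matrix block). The share of all genes higher in 4 of 4 pairs was not counted. In the fit with the matrix block 2 of the 7 members were called, both higher, against 33% of all genes tested in either direction and 15.9% higher. With the numbers of the scanner files as the block, no member passed, and the adjusted p was 0.742 for KLF5 and 0.144 for KLF4.

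**Figure D2:**
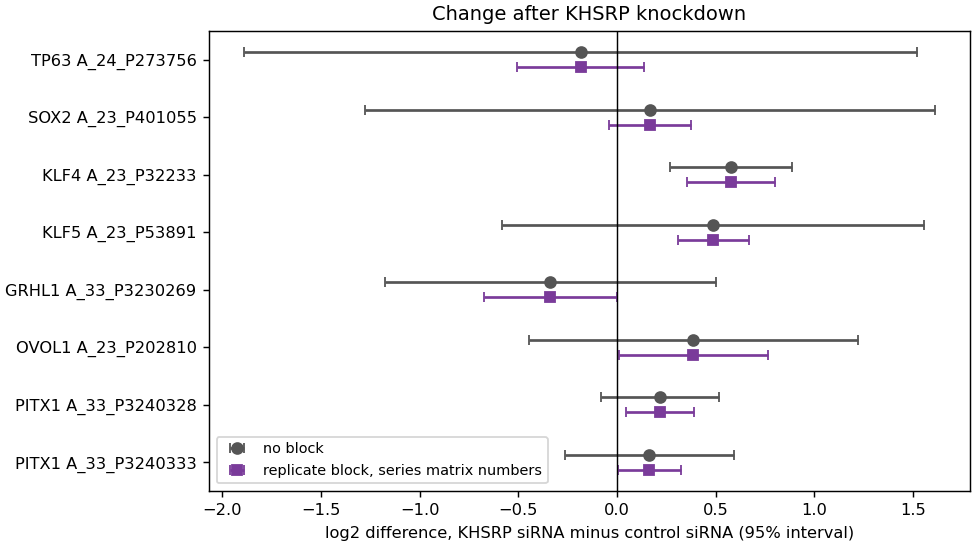
Difference between KHSRP and control siRNA (horizontal axis, log2) for each tested probe of the members, with 95% intervals, without a block (grey circles) and with the series matrix numbers as a replicate block (purple squares). The estimates are the same in both fits, and the interval of KLF5 narrows from -0.58 to 1.56 down to 0.31 to 0.67.

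TP63 (chr3:189596746-189897276), the basal master regulator, had levels of -1.26, -2.78, -0.37 and -2.57 with control siRNA and -0.997, -3.21, -2.97 and -0.54 with KHSRP siRNA. Control siRNA 1 and 3 and KHSRP siRNA 1 and 4 were high, and the range within each group (5.30-fold among controls, 6.38-fold with KHSRP siRNA) was far wider than the difference between the means. That difference was -0.18 (SE 0.75, 95% interval -1.89 to 1.52, limma adjusted p = 0.940). With the matrix numbers as a block, the interval was -0.51 to 0.14 (adjusted p = 0.330).

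SOX2 (chr3:181711925-181714436) had levels of 2.45, 1.25, 3.17 and 1.11 with control siRNA and 2.54, 1.29, 1.24 and 3.58 with KHSRP siRNA. The same 4 arrays as for TP63 were high, with ranges of 4.18-fold and 5.07-fold within the groups. The log2 difference between the groups was 0.17 (SE 0.63, 95% interval -1.28 to 1.61, limma adjusted p = 0.936). In the matrix-numbered pairs SOX2 differed by 0.09, 0.04, 0.41 and 0.13, and the blocked interval was -0.04 to 0.37 (adjusted p = 0.187).

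Among the grainyhead-like factors, GRHL1 (chr2:9951693-10002277) gave levels of -1.59, -0.997, -2.18 and -0.70 with control siRNA and -1.46, -1.51, -1.33 and -2.51 with KHSRP siRNA. The groups overlapped, and the log2 difference was -0.34 (SE 0.37, 95% interval -1.18 to 0.50, limma adjusted p = 0.712). With the matrix numbers as a block, the GRHL1 interval was -0.67 to -0.001 (limma adjusted p = 0.114). The scanner block gave a limma adjusted p of 0.796, so GRHL1 passed in neither fit. GRHL3 (chr1:24319357-24364482), which promotes barrier formation, had levels of -3.13, -3.58, -2.87 and -3.93 with control siRNA and -1.99, -3.02, -3.49 and -1.55 with KHSRP siRNA with the probe A_23_P52067. Its 4 differences within matrix-numbered pairs were 1.13, 0.57, 1.32 and 0.44, but only 1 control array and 3 KHSRP siRNA arrays were well above background. When no filter was set, its limma adjusted p was 0.635. No difference was detectable for GRHL2, whose probes stayed at background in both groups.

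OVOL1 (chr11:65787063-65797214), which restrains proliferation as keratinocytes mature, had levels of -0.90, -0.67, -1.91 and -0.21 with control siRNA and -0.71, -0.11, -0.24 and -1.07 with KHSRP siRNA. Control siRNA 3 and KHSRP siRNA 4, where TP63 and SOX2 were highest, were the lowest for OVOL1 in their groups. The log2 difference was 0.39 (SE 0.36, 95% interval -0.44 to 1.22, limma adjusted p = 0.657). With the matrix numbers as a block, the OVOL1 interval was 0.008 to 0.77 (limma adjusted p = 0.109). The scanner block gave a limma adjusted p of 0.736, so OVOL1 passed in neither fit. ZNF750 (chr17:82829434-82840022), a target of p63 in differentiating keratinocytes, was at background on all 8 arrays.

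PITX1 (chr5:135027734-135034789) had 2 tested probes. The brighter, A_33_P3240328, gave 3.75, 3.58, 3.71 and 3.45 with control siRNA and 3.89, 3.74, 3.66 and 4.07 with KHSRP siRNA, a difference of 0.22 (SE 0.13, 95% interval -0.08 to 0.52, limma adjusted p = 0.426). The other, A_33_P3240333, gave 0.999, 0.65, 0.80 and 0.37 and then 1.23, 0.71, 0.57 and 0.95, a difference of 0.16 (SE 0.19, limma adjusted p = 0.729). Both probes pointed the same way, and both were higher with KHSRP siRNA in 4 of 4 matrix-numbered pairs, by 0.14 to 0.36 and by 0.06 to 0.24. By the scanner numbers the third pair went the other way, at -0.05 and -0.22. With the matrix block the limma adjusted p was 0.0631 and 0.108, and with the scanner block 0.560 and 0.714, so neither passed.

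The members differed from each other in how much they varied between arrays of the same group. The SD within siRNA groups was 1.25 for TP63, at the 99.0th percentile of all tested probes, 1.06 for SOX2 (97.9th) and 0.78 for KLF5 (94.6th). GRHL1 and OVOL1 had an SD of 0.60 each (89.6th and 89.3rd). KLF4 at 0.17 (23.6th) and the brighter PITX1 probe at 0.16 (20.5th) were steadier than the median tested probe, whose SD was 0.26. Without a block, TP63, SOX2 and KLF5 therefore had the widest intervals among the tested members. With the matrix numbers as a block this was not so, since the SE was 0.13 for TP63, 0.08 for SOX2 and 0.07 for KLF5, against 0.09 for KLF4, 0.14 for GRHL1 and 0.15 for OVOL1.

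**Figure D3:**
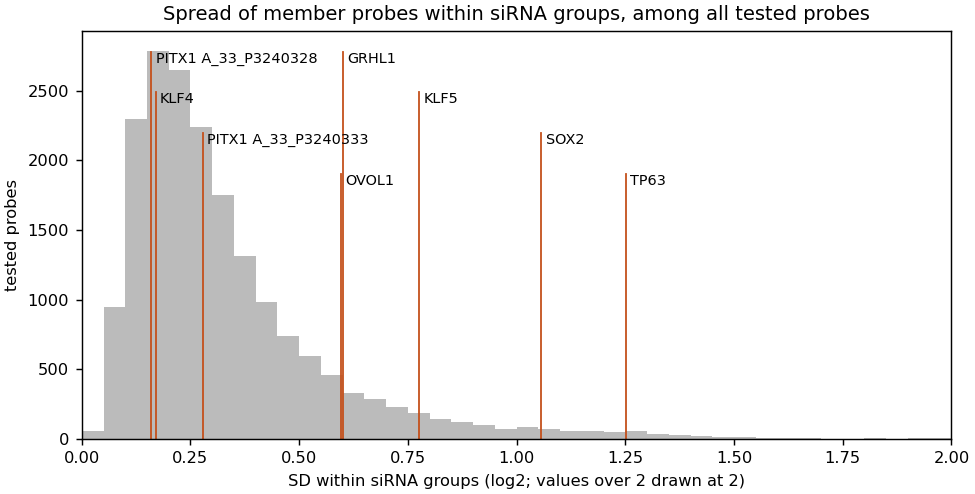
Number of tested probes (vertical axis) by their SD within siRNA groups (horizontal axis, log2), with the member probes as orange lines of arbitrary height; PITX1 has 2 lines, named by probe. TP63 (1.25), SOX2 (1.06) and KLF5 (0.78) lie in the upper tail, and KLF4 (0.17) and the brighter PITX1 probe (0.16) lie below the median of 0.26.

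TP63, SOX2, KLF5 and PITX1 were higher on the arrays that followed control siRNA 1 than on the other arrays of the same siRNA group, in both groups. OVOL1 was lower on those arrays in both groups, and KLF4 and GRHL1 followed neither order. Of the 7 members tested, 5 were thus ordered (4 high, 1 low), against 47.1% of all genes tested in either direction, 19.2% high and 27.9% low. PITX1 was ordered by small steps, since its level spanned 1.23-fold among the controls and 1.33-fold with KHSRP siRNA.

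Keratins and other epithelial markers moved along the same order. All 7 tested markers of squamous epithelium were high on the arrays that followed control siRNA 1. KRT5, a keratin of basal cells and a p63 target, had levels of 5.84, 4.30, 5.84 and 3.11 with control siRNA and 5.92, 4.46, 2.92 and 5.98 with KHSRP siRNA. Of the 4 tested columnar markers, 3 (KRT8, KRT18 and CDX2) were low there, with KRT8 at 5.14, 5.69, 4.68 and 5.59 and then at 4.79, 5.11, 5.39 and 4.23. The summed level of the 8 squamous markers, in multiples of the 75th percentile signal, ran from 49.4 to 277 among the controls and from 46.1 to 330 with KHSRP siRNA. That of the 6 columnar markers ran from 161 to 221 and from 126 to 202. The 2 leukocyte markers tested were high on the same arrays and the 1 fibroblast marker tested was low. The sums were 1.16 to 3.95 and 1.32 to 5.03 for the 4 leukocyte genes, 0.312 to 0.507 and 0.363 to 0.611 for the 6 fibroblast genes, and 0.129 to 0.190 and 0.127 to 0.245 for the 3 endothelial genes. Of these, 5 fibroblast and all 3 endothelial genes were well above background on no array. Each sum adds signals of different probes, so the brightest weigh most, among the columnar genes KRT18 and KRT8. The part of these cell type markers in the spread of TP63, SOX2 and KLF5 was not tested.

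**Figure D4:**
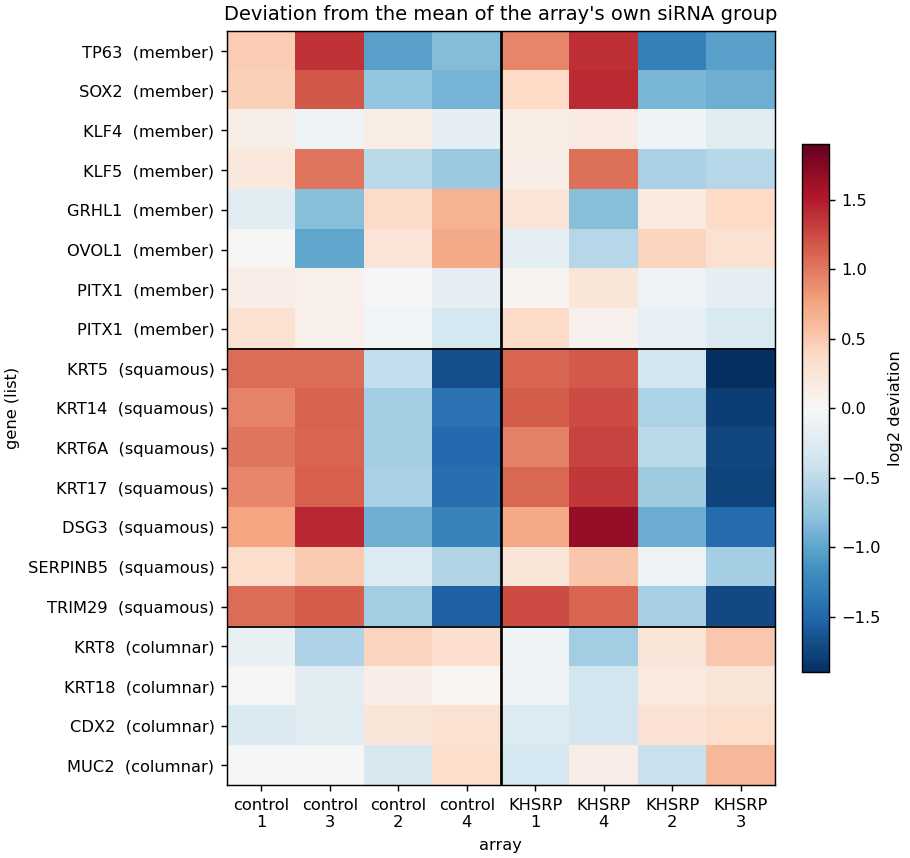
Deviation of each gene from the mean of the array's own siRNA group (colour, log2) on the 8 arrays, with the arrays that followed control siRNA 1 at the left of each group; rows are the 8 tested member probes, 7 squamous markers and 4 columnar markers. TP63, SOX2 and KLF5 share the red and blue blocks of the squamous markers, and KLF4 stays close to 0. OVOL1 and KRT8 lean the opposite way, though OVOL1 on control siRNA 1 (-0.90) was near its control mean (-0.92).

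The genes that work with or under these factors were counted in 6 lists of 129 genes in all, of which 98 were tested. Between the siRNA groups 5 of the 98 were called, 3 higher and 2 lower, against 6.19% of all genes. With the matrix numbers as a block 35 were called, against 33% of all genes. That block called 6 other squamous transcription factors higher and 3 lower, 6 basal genes higher and 1 lower, and 4 GRHL-linked genes higher and 2 lower. It called 2 late differentiation genes higher and 1 lower, 3 partners higher and 3 lower, and 1 paralog higher and 3 lower. The calls given below for each list are without a block. Counts below at an unadjusted limma p under 0.05 stand beside 2517 of all 12125 genes tested.

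Among 25 other squamous transcription factors, 17 were tested and 1 was called higher, at a median log2 change of 0.01. This was CEBPA, a factor of maturing keratinocytes, which rose by 0.70 on the log2 scale (SE 0.14, limma adjusted p = 0.0230). Its call was kept without control siRNA 4 or KHSRP siRNA 4 and was lost without any 1 of the other 6 arrays, where the adjusted p lay between 0.0513 and 0.0800. On the arrays that followed control siRNA 1, 9 of the 17 were high and none was low (19.2% and 27.9% of all genes tested).

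None of the 21 tested basal genes linked to p63 was called, at a median of 0.11, and 1 had an unadjusted p under 0.05. On the arrays that followed control siRNA 1, 14 of the 21, KRT5, KRT14 and COL17A1 among them, were high and 2 were low. Over all genes tested these shares were 19.2% and 27.9%. None of the 13 tested genes linked to GRHL factors was called, at a median of 0.23 and with 2 at an unadjusted p under 0.05. The order of these 13 was the reverse, with 9 low and 1 high on those arrays, and claudin genes CLDN3 and CLDN4 were among the 9.

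Of 27 late differentiation genes, 12 were tested and 2 were called, both higher, at a median of 0.04. PPL, which encodes periplakin of the cornified envelope, rose by 0.999 on the log2 scale (SE 0.19, limma adjusted p = 0.0196). Its call was lost without control siRNA 1, 2 or 4 or KHSRP siRNA 1 or 2, with adjusted p between 0.0561 and 0.0692. EMP1, an epithelial membrane protein gene, rose by 0.58 (SE 0.10, limma adjusted p = 0.0142), and among the left-out arrays its call was lost without control siRNA 1 alone (adjusted p = 0.0590). The EMP1 call was also lost with median scaling (adjusted p = 0.156), with no filter on dim probes (0.113) and with the scanner file numbers as a block (0.0846). The other 15 of the 27 were without a tested probe, IVL, FLG and KRT4 among them. Of the 12 tested, 6 were high on the arrays that followed control siRNA 1 and none was low (19.2% and 27.9% of all genes tested).

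None of the 17 tested partners and turnover factors, such as the ubiquitin ligase genes ITCH and WWP1, was called, at a median of 0.01 and with 5 at an unadjusted p under 0.05. On the arrays that followed control siRNA 1, 3 were high and 5 low (19.2% and 27.9% of all genes tested). Among the paralogs of the members, 19 of 26 were tested and 2 were called, both lower, at a median of -0.00. KLF13 fell by 0.95 on the log2 scale (SE 0.13, limma adjusted p = 0.00635) and stayed called with each of the 8 arrays left out. KLF11, a repressor of the same zinc finger family, fell by 0.53 (SE 0.12, limma adjusted p = 0.0374), a call lost without any 1 of the 8 arrays (adjusted p 0.0543 to 0.114). Of the 19, 2 were high and 7 low on the arrays that followed control siRNA 1, against the same 19.2% and 27.9% of all genes.

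KLF4 had the smallest p among the members measured on all 8 arrays, so the genes most like it were listed by Pearson correlation of their levels over the 8 arrays, among 11450 genes measured on all of them. The 5 highest were RAB11FIP5 and HBEGF (r = 0.984 each), SEMA3F (r = 0.979), RFFL and FLOT2 (r = 0.975 each). These 8 points share 2 siRNA groups, so genes that differ between the groups reach a high r, and the values are a description.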

How the data were processed

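Per the labels, Cy3-labelled cRNA from total RNA was hybridised to Agilent one-colour whole genome arrays. The authors deposited scanner files of linear intensity, whose processed signal had its background subtracted and spatial trends removed per array, without scaling across arrays, and a series matrix of log2 values. Feature Extraction is version 11.5.1.1 per the file headers and 12.6 per the submitters' processing notes. Between-array differences in each matrix column matched 1 scanner file at r = 1.00, with scaling to the 75th percentile, and the columns of KHSRP siRNA 3 and 4 matched each other's file (r = -0.43 with their own), so the group is unaffected and the replicate number is open. The matrix values were taken as log2 values centred per probe. How they were centred and any other shift of the matrix columns (medians -0.25 to 0.22) stay unknown, since the match used differences between arrays.

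Scanner values were used for all comparisons. Control and outlier spots (265 to 346 outliers per array) were left out, the log2 signal was averaged per probe and the array's 75th percentile over non-control probes was subtracted. That percentile was a signal of 87.7 to 117. Probes were named through RefSeq accessions with a GRCh38.p14 gene table, which named 27241 of 42405 probes (64.2%), and a gene was represented by its tested probe with the highest mean. Groups were compared over all 8 arrays with limma 3.58.1 in R 4.3.3 (lmFit, eBayes, two-sided, Benjamini-Hochberg over 18761 tested probes, adjusted p under 0.05). The procedure was tested on simulated data with independent noise, which lack the deviations that these arrays share. Slide and scan number coincide, and slide was tried as a block. Same-numbered arrays were checked for shared deviations. By the matrix numbers every pair correlated (0.43 to 0.84), as did arrays of the same kind that share no number. Values with that block are printed for members, and for the related lists as counts only. The number of arrays limits the precision.

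The members, the related lists and the markers were chosen with earlier results of these data known. Genes named are all members and KHSRP, at most the 3 called genes with the largest change from each list, and the 5 genes most like the member with the smallest p. Other genes are named as examples or as markers, and were chosen after their values were seen. OVOL2 and LOR were not matched to a probe. Scalings, filters, background correction, variance models, the methods' t-test, pairing and left-out arrays were tried as alternatives. Background correction used the median spot brightness, a choice made after seeing the data, because mean brightness was not analysed here. Figures were drawn with matplotlib 3.10.9 in Python 3.11.15.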

Additional observations from a re-analysis of the deposited data

Results flagged for a closer look

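In 2 of 20 groups of 4 arrays examined, 1 array lay far from the others by Dixon's criterion, which chance gives in about 1 in 20 groups. The GRHL1 probe A_33_P3230269 was at -2.51 on KHSRP siRNA 4, the lowest of its group, with the nearest array at -1.51 (ratio 0.845). The same array was among those that followed control siRNA 1, and it was the 1 KHSRP siRNA array on which this probe was not well above background. The KHSRP probe A_24_P134235 was at -1.86 on control siRNA 2, the lowest control, with the nearest array at -1.10 (ratio 0.832).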

How the results depend on the processing

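The KHSRP change kept its direction and its call in 22 of 22 alternatives, at log2 values of -3.46 to -3.22. The dimmer KHSRP probe lost its call without control siRNA 1 (limma adjusted p = 0.0549) and with the scanner block (0.0724). With each 1 of the 8 arrays left out, 0 to 1 members and 1 to 4 related genes were called. Members called numbered 0 with median scaling, normexp on the median spot brightness, no filter on dim probes, the replicate block by scanner file numbers, the intensity trend with robust variance, and the methods' t-test after Benjamini-Hochberg adjustment, against 1 as reported and 2 with the replicate block by series matrix numbers. Related genes called numbered 2 with median scaling, 1 with no filter, 1 with the replicate block by scanner file numbers, 35 with the block by series matrix numbers and 16 by the methods' t-test unadjusted, against 5 as reported. Over all 18761 probes tested the scanner block called 156, the matrix block 5644 and the methods' t-test unadjusted 3710, against 1039. Median scaling moved the median of all probes from 0.01 to -0.06 and the share of calls that were higher from 34.6% to 17.2% (98 of 570 probes). The share was 49.3% with the matrix block, 43.0% with array weights, 27.0% with no filter (86 of 319 probes) and 19.2% with the scanner block. Outside the left-out arrays, the KLF4 call was lost with median scaling, normexp (log2 change 0.34, limma adjusted p = 0.119), no filter (0.202), the scanner block (0.144), the intensity trend (0.0529) and the methods' t-test after adjustment (0.0510). Among the related genes, no filter and the scanner block also ended the calls of CEBPA (limma adjusted p = 0.117 and 0.102), PPL (0.0835 and 0.118) and KLF11 (0.200 and 0.165). Median scaling ended the calls of CEBPA (0.164) and KLF11 (0.0799). The KLF11 call was also lost with normexp (log2 change -0.28, limma adjusted p = 0.0523) and with the intensity trend (0.0522). KLF5 was called only with the matrix block (limma adjusted p = 0.00751). The sign of the SOX2 difference reversed with array weights (-0.31) and without control siRNA 2 (-0.08), control siRNA 4 (-0.13) or KHSRP siRNA 4 (-0.31). That of TP63 reversed without control siRNA 3 (0.27), KHSRP siRNA 2 (0.24) or KHSRP siRNA 3 (0.16), and neither gene was called in any of these. With single arrays left out, the difference ran from -0.31 to 0.56 for SOX2 and from -0.65 to 0.27 for TP63. The cause of these changes was not tested. GRHL2 and ZNF750 were well above background on no array, so a difference there was not measurable on these arrays. GRHL3 was well above background on 1 control array and 3 KHSRP siRNA arrays with the probe A_23_P52067, which missed the filter and was not tested.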
